A study of Homo sapiens with 6 samples.

Results

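RIG-I, the product of DDX58, and 8 factors that work with it were followed in SH-SY5Y, a human neuroblastoma line often used as a neuron-like model. The genes were DDX58 with the related receptors IFIH1 and DHX58, the adaptor MAVS, the kinase TBK1, the transcription factors IRF3 and IRF7, and STAT2 with IRF9. They were 9 of the 61860 gene identifiers in the deposited table, and all 9 were found there by symbol. They were selected on the difference in DDX58 between the groups described here, with Oligonol higher, so all differences of the 9 genes between these groups are given as a description, without tests.

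The IR+Oligonol group held 3 libraries from retinoic acid-differentiated cells kept for 24 h in 30 mM D-glucose and 100 nM insulin and given Oligonol, a polyphenol preparation from lychee fruit, at 500 ng/mL for 24 h. The IR control group held 3 libraries from cells differentiated and made insulin resistant (IR) in the same way, without Oligonol. Every library therefore carried the insulin-resistant state and the retinoic acid treatment, and no cells with normal insulin response were analysed here. The comparison asks how Oligonol altered gene expression in insulin-resistant neuron-like cells, in 1 cell line, from total RNA libraries prepared with a stranded kit and read on both ends.

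RIG-I-like receptors are helicases that bind viral or misplaced cellular RNA in the cytosol. RIG-I recognises short double-stranded ends that carry a triphosphate, MDA5 (IFIH1) recognises long double-stranded RNA, and LGP2 (DHX58) binds RNA but lacks the signalling domains of the other two. Bound RIG-I and MDA5 assemble MAVS on the mitochondrial surface, MAVS recruits TBK1, and TBK1 phosphorylates IRF3 and IRF7, which switch on interferon genes. Secreted interferon then acts through its receptor to form a complex that holds STAT2 and IRF9, which binds interferon response elements and raises many antiviral genes, those of the receptors among them. Cells of neuronal origin carry this pathway, usually at low levels when no virus is present.

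Levels are CPM, the deposited estimated counts scaled to a common library size by TMM, and errors are SD over 3 libraries. The estimated counts behaved as abundance per transcript length, so levels can be set side by side between genes. A read equivalent is an estimated count turned back into an approximate number of reads with a gene's transcript length. Estimated counts came to 19457923 to 20912945 per Oligonol library and 22738203 to 32209583 per control library, and protein-coding genes to 15542425 to 16226054 read equivalents per Oligonol library and 13803596 to 16001427 per control library. Protein-coding genes made up 12.3, 10.0 and 11.8% of the estimated counts in Oligonol libraries 1, 2 and 3. In control libraries 1, 2 and 3 they made up 6.83, 6.73 and 6.24%. Values given below by library totals carry this difference in composition. Weighted by protein-coding counts, the median transcript GC content was 51.2, 54.1 and 51.6% in Oligonol libraries 1, 2 and 3, against 56.2, 56.3 and 56.0% in control libraries 1, 2 and 3, so the libraries differed in composition along GC content and Oligonol 2 stood between its own group and the controls. Of 13 markers of noradrenergic neuroblasts, 11 passed the filter on low values, with 0 higher and 2 lower with Oligonol by the test used below, and a summed level of 168 to 227 CPM with Oligonol and 254 to 305 CPM in controls. The share called was 18.2%, beside 48.9% of all tested genes. Their median log2 fold change was -0.35 by TMM. It was 0.29, with 0 called, when each library's trend with GC content was removed. PHOX2A, a transcription factor that defines that lineage, averaged 45.1 ± 15.8 CPM with Oligonol and 79.8 ± 10.4 CPM in controls, whereas the enzyme gene TH was at most 0.0360 CPM with Oligonol and at most 0.116 CPM in controls. Other markers of the list went the other way in unscaled read equivalents. STMN2 had 4139, 3133 and 3582 with Oligonol, against 1729, 2298 and 2078 in controls. CHGB had 1631, 1453 and 1299 with Oligonol, against 744, 938 and 1075 in controls. Of 14 myeloid and lymphoid markers, 1 (CD68) passed that filter, 3 were listed at 0 in every library, and their summed level was 0.912 to 1.52 CPM with Oligonol and 1.13 to 1.79 CPM in controls. Of 10 glial and endothelial markers, 1 (GFAP) passed, with summed levels of 1.78 to 2.43 CPM with Oligonol and 1.76 to 2.33 CPM in controls. In RNA from whole cultures, fewer cells of a type and less RNA per cell cannot be told apart.

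RefSeq promoters of build GRCh38.p14 were at hand for 6 of the 9 genes: DDX58 (listed as RIGI), IFIH1, MAVS, TBK1, STAT2 and IRF9. The 250 bases before each start were searched on both strands for the core of the interferon response element, which reads GAAA, any 2 bases and GAAA again, and for TTCNNNGAA, the STAT dimer element. The response element core was found in 1 of the 6, IFIH1, where it began at 159, 153 and 21 bases before the start, the first 2 overlapping each other, against 3.02% of all 35116 promoters. TTCNNNGAA was found in IRF9 alone, 63 bases before its start, against 6.57% of all promoters. GGGCGG, the GC box, was added to the search after the sequences had been looked at, and it was in 4 of the 6 against 42.6% of all promoters. The 170 bases before the start are shown for the 2 RNA receptors with an entry and for TBK1, since these are the receptor that was higher, its closest relative and the other gene that was higher. Capitals mark the response element core and GGGCGG on either strand, and the stretches lie at chr9:32526197-32526366 (minus strand), chr2:162318685-162318854 (minus strand) and chr12:64451950-64452119 (plus strand).
DDX58: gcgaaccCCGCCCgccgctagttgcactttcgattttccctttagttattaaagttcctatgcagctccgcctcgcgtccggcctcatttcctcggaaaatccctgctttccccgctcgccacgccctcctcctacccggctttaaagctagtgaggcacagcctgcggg
IFIH1: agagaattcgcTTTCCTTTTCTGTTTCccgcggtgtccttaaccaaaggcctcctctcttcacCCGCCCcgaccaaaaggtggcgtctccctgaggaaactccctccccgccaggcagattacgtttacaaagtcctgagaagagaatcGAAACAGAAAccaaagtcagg
TBK1: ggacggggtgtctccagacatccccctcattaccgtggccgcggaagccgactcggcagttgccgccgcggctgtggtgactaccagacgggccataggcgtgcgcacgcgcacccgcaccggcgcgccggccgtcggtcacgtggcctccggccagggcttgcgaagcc
In these windows the IFIH1 sequence holds 3 matches to the response element core and the DDX58 and TBK1 sequences hold none. A match of letters is a description and not a bound site, and response elements of other spacing or form were not searched for.

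DDX58 was low in both groups and higher with Oligonol. Its gene (ENSG00000107201) spans 32455302 to 32526208 on the minus strand of chromosome 9 in GRCh38.p13, the build named in the submitters' processing notes. It stood at 0.514, 0.451 and 0.602 CPM in Oligonol libraries 1, 2 and 3, against 0.0787, 0.0945 and 0.0824 CPM in control libraries 1, 2 and 3. The groups did not overlap, the replicates lay close to each other within each group, and the lowest Oligonol library was Oligonol 2. The means were 0.523 ± 0.0759 CPM with Oligonol and 0.0852 ± 0.00825 CPM in controls, a ratio of 6.13. These levels rested on 175, 137 and 203 read equivalents with Oligonol, against 20.7, 23.1 and 22.5 in controls, from estimated counts of 19.25, 11.6 and 20.9 with Oligonol against 1.32, 1.46 and 1.41 in controls. One read was worth 0.110, 0.0845 and 0.103 estimated counts in the Oligonol libraries and 0.0638, 0.0631 and 0.0626 in the controls, so both groups stood above the value of 3 reads. DDX58 reached the filter's level in 3 of 3 Oligonol libraries and in 0 of 3 controls, so it entered the fit through the group in which it was high. The fit across all genes gave a log2 fold change of 3.02 (SE 0.41) on counts rounded to whole numbers, and 2.48 on read equivalents, where the controls were not rounded to 1. The row of an unnamed gene, ENSG00000288684, covers the same stretch from 32455323 to 32552603 and had estimated counts of 2.93, 0 and 5.07 with Oligonol and 1.73, 1.37 and 1.14 in controls. How the reads were divided between these overlapping genes was not tested.

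IFIH1, on chromosome 2 from 162267074 to 162318684, was near the limit of detection in both groups. Its level was 0.0631, 0.0187 and 0.0386 CPM in Oligonol libraries 1, 2 and 3, against 0.0167, 0.0505 and 0.0316 CPM in control libraries 1, 2 and 3. The groups overlapped over nearly their whole range, at means of 0.0401 ± 0.0222 CPM with Oligonol and 0.0329 ± 0.0169 CPM in controls. Only 4.66 to 17.6 read equivalents with Oligonol and 3.59 to 10.1 in controls supported these values, and IFIH1 did not pass the filter. A difference in MDA5 mRNA was not detectable at this depth.

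DHX58, on chromosome 17 from 42101404 to 42112714, also failed the filter. It had 0.0639, 0.0505 and 0.0395 CPM with Oligonol, against 0.229, 0.0666 and 0.116 CPM in controls. The control libraries lay higher but control 2 came within a little of Oligonol 1, and the control SD (0.137 ± 0.0835 CPM) exceeded the Oligonol mean (0.0513 ± 0.0122 CPM). In reads the groups overlapped, with 12.8, 9.02 and 7.81 read equivalents with Oligonol against 35.4, 9.58 and 18.5 in controls. Of the 3 receptors, DDX58 alone was both above the filter and higher with Oligonol.

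**Figure D1:**
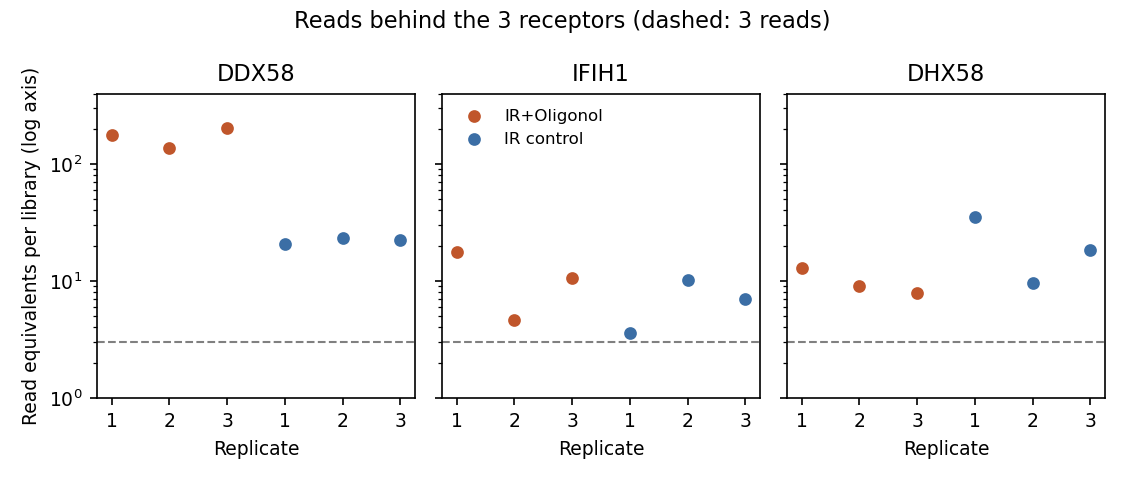
Read equivalents (log axis) behind DDX58, IFIH1 and DHX58 in each library, with IR+Oligonol replicates left of IR control replicates and a dashed line at 3 reads. DDX58 stands at 137 to 203 with Oligonol and 20.7 to 23.1 in controls, while IFIH1 and DHX58 stay between 3.59 and 35.4 in all libraries and overlap between groups.

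MAVS, which passes the signal from RIG-I and MDA5 to the kinases, lies on chromosome 20 from 3846799 to 3876123. It was at 1.77, 1.94 and 1.85 CPM with Oligonol, against 2.39, 2.07 and 2.67 CPM in controls. The Oligonol libraries lay close together just under the lowest control, at 1.85 ± 0.0894 CPM with Oligonol and 2.38 ± 0.305 CPM in controls. The log2 fold change was -0.37 (SE 0.18), and 1.02 by library totals with no scaling factor, where the median of all tested genes was 1.53 instead of 0.15. In read equivalents the groups overlapped, with 1659, 1630 and 1718 with Oligonol against 1732, 1393 and 2012 in controls.

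TBK1, the kinase that phosphorylates IRF3 and IRF7, lies on chromosome 12 from 64452090 to 64502114 and was the other gene of the 9 that was higher with Oligonol. Its level was 4.25, 2.45 and 4.56 CPM with Oligonol, against 1.35, 1.11 and 0.498 CPM in controls. The groups did not overlap, Oligonol 2 was again the lowest of its group, and control 3 was the lowest of all. The means were 3.75 ± 1.14 CPM with Oligonol and 0.986 ± 0.440 CPM in controls, a ratio of 3.81, and the log2 fold change was 1.91 (SE 0.37). These levels rested on 1070, 551 and 1136 read equivalents with Oligonol against 263, 200 and 100 in controls. TBK1 reached the filter's level in 3 Oligonol libraries and in 2 controls, with an estimated count of 8.52 in control 3. Like DDX58, it thus entered the fit through the group in which it was high. An antisense row, ENSG00000277895, overlaps the start of TBK1 and had estimated counts of 6.87, 3.96 and 8.93 with Oligonol and 3.70, 0.26 and 2.75 in controls. The labels do not say whether the counting used the strand, and without that reads of the 2 cannot be told apart.

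IRF3 and IRF7, the targets of TBK1, had lower TMM-scaled CPM with Oligonol than in controls, a direction that turned by library totals. IRF3, on chromosome 19 from 49659569 to 49665875, was at 3.49, 7.63 and 4.83 CPM with Oligonol, against 8.78, 12.8 and 12.7 CPM in controls. IRF7, on chromosome 11 from 612553 to 615983, was at 2.61, 3.78 and 2.16 CPM with Oligonol, against 5.83, 6.45 and 6.30 CPM in controls. For both genes the groups did not overlap in CPM and Oligonol 2 was the highest of its group, nearest to the controls. IRF3 averaged 5.31 ± 2.11 CPM with Oligonol and 11.4 ± 2.29 CPM in controls, and IRF7 2.85 ± 0.834 CPM with Oligonol and 6.19 ± 0.324 CPM in controls. Log2 fold changes were -1.11 (SE 0.31) for IRF3 and -1.13 (SE 0.23) for IRF7 by TMM, but 0.22 for each by library totals, so the sign depended on the scaling. Both genes lay under the median of all tested genes, which was 0.15 by TMM and 1.53 by library totals. The estimated counts of IRF7 were 97.7, 97.1 and 74.9 with Oligonol against 97.8, 99.7 and 108 in controls before any scaling. In read equivalents IRF3 overlapped by 1 library, with 449, 877 and 615 with Oligonol against 871, 1183 and 1312 in controls, and IRF7 did not, with 402, 519 and 329 with Oligonol against 692, 714 and 777 in controls. IRF3 shares part of its locus with BCL2L12 on the opposite strand.

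STAT2 and IRF9, parts of the complex that answers interferon, also had lower TMM-scaled CPM with Oligonol, and again the direction turned by library totals. STAT2, on chromosome 12 from 56341597 to 56360203, was at 4.05, 4.01 and 3.94 CPM with Oligonol, against 5.40, 5.24 and 6.48 CPM in controls. IRF9, on chromosome 14 from 24161234 to 24168043, was at 1.64, 2.59 and 1.76 CPM with Oligonol, against 3.01, 3.84 and 5.38 CPM in controls. In CPM neither gene overlapped between groups, and STAT2 averaged 4.0004 ± 0.0542 CPM with Oligonol and 5.71 ± 0.677 CPM in controls. In read equivalents STAT2 overlapped, with 1021, 902 and 984 with Oligonol against 1050, 950 and 1309 in controls, while IRF9 came close to it, with 224, 317 and 238 with Oligonol against 317, 377 and 588 in controls. IRF9 averaged 2.00 ± 0.520 CPM with Oligonol and 4.07 ± 1.201 CPM in controls. Log2 fold changes were -0.51 (SE 0.16) for STAT2 and -1.04 (SE 0.28) for IRF9 by TMM, but 0.88 and 0.34 by library totals. Both genes again lay under the median of all tested genes, 0.15 by TMM and 1.53 by library totals. IRF9 overlaps ENSG00000259529 on the same strand, a row with 6.82 to 9.39 estimated counts with Oligonol and 9.65 to 13.1 in controls.

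Of the 9 genes, 7 passed the filter, and in all 7 the CPM of the groups did not overlap, 2 being higher and 5 lower with Oligonol by TMM, those 5 having positive fold changes by library totals. Among all 16574 tested genes 62.6% did not overlap, 33.8% with Oligonol higher and 28.8% with Oligonol lower. The 7 include genes that passed through the group in which they were high, and nothing is read from their count.

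**Figure D2:**
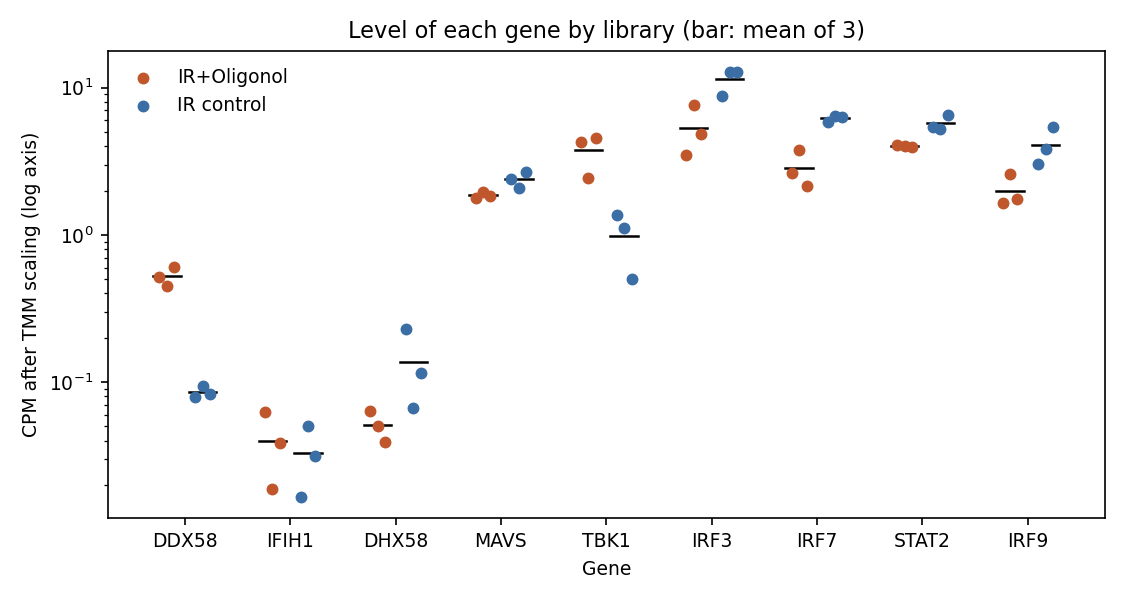
CPM after TMM scaling (log axis) of the 9 genes in each library, with IR+Oligonol left of IR control and a bar at the mean of 3. DDX58 and TBK1 are higher with Oligonol, at means of 0.523 and 3.75 CPM against 0.0852 and 0.986 CPM in controls; IFIH1 overlaps; the other genes are lower by this scaling, while MAVS, IRF3, IRF7, STAT2 and IRF9 have positive fold changes by library totals.

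In order of level with Oligonol, IRF3 came first, followed by STAT2, TBK1, IRF7, IRF9, MAVS, DDX58, DHX58 and IFIH1. Neighbours from IRF3 down to MAVS overlapped in their ranges, so their order is within the spread of replicates, and so did DHX58 and IFIH1. The steps from MAVS to DDX58 and from DDX58 to DHX58 were clear of overlap. In controls the order was IRF3, IRF7, STAT2, IRF9, MAVS, TBK1, DHX58, DDX58 and IFIH1. Here IRF7, STAT2 and IRF9 overlapped their neighbours, as did DHX58 and DDX58, and the other steps were clear. TBK1 thus stood above IRF7, IRF9 and MAVS in mean level with Oligonol and below them in controls, and DDX58 stood above DHX58 with Oligonol alone.

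The direction of the 7 genes in the fit went with their GC content. The 2 that were higher had the lowest transcript GC content, 37.2% for TBK1 and 40.2% for DDX58. The others had 52.0% (MAVS), 52.1% (STAT2), 56.4% (IRF9), 60.9% (IRF3) and 66.9% (IRF7). The same held across the transcriptome. By edgeR's quasi-likelihood test with an adjusted p under 0.05, 65.7% of the 3540 tested protein-coding genes with GC under 45% were higher with Oligonol and 0.311% lower, at a median log2 fold change of 1.00. Of the 4101 genes with GC of 55% or more, 0.536% were higher and 70.1% lower, at a median of -0.89. DDX58 and TBK1 thus moved in the direction that most genes of their GC content did.

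When each library's trend with GC content was removed, the log2 fold change of DDX58 was 2.06 (SE 0.39) and that of TBK1 0.77 (SE 0.27). Leaving out 1 library at a time, in a fit chosen after seeing the data, gave 1.98 to 2.17 for DDX58 and 0.58 to 1.06 for TBK1. The values of the lower genes shrank to -0.25 (SE 0.13) for MAVS, -0.26 (SE 0.19) for IRF3, -0.12 (SE 0.13) for IRF7, -0.39 (SE 0.11) for STAT2 and -0.46 (SE 0.20) for IRF9. DDX58 thus kept the larger part of its difference on the log2 scale, on counts rounded to whole numbers. Rounding set its controls of 1.32, 1.46 and 1.41 to 1 in this fit too. Removal of the GC trend was not run on read equivalents. The removal takes away any true change that follows GC content along with a technical one, and which of them the trend reflects was not tested.

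**Figure D3:**
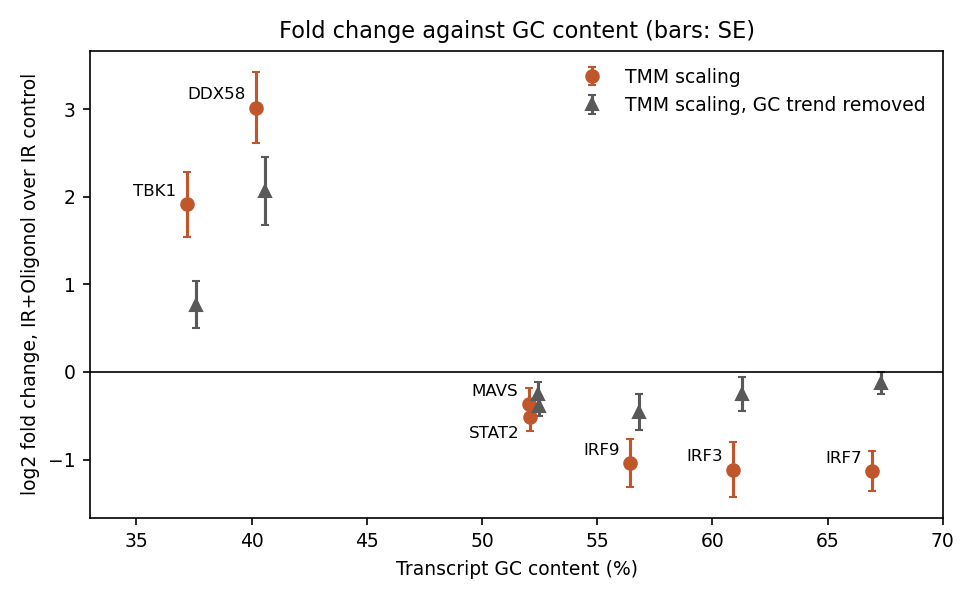
Log2 fold change, IR+Oligonol over IR control, against transcript GC content (%) for the 7 tested genes, with bars of SE; circles show TMM scaling and triangles, drawn slightly to the right, the same with each library's GC trend removed. DDX58 stays at 2.06 and TBK1 at 0.77 after removal, and the other genes move to between -0.46 and -0.12; by library totals MAVS, IRF3, IRF7, STAT2 and IRF9 are above 0.

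The other genes of the pathway were taken from lists that leave out the 9 genes. As background, edgeR's quasi-likelihood test called 48.9% of all 16574 tested genes at an adjusted p under 0.05, 26% higher and 23% lower with Oligonol, and 5.44% of 16200 genes with the GC trend removed, 2.89% higher and 2.56% lower. Calls of single genes depended on the libraries: the test called 8112 genes in all, but 782 without control 3, 1835 without Oligonol 3, 2344 without Oligonol 1 and 2511 without control 2, and with the GC trend removed 0 without any 1 of these 4. By library totals the median log2 fold change of all tested genes was 1.53 instead of 0.15. The share of all genes called by library totals, by DESeq2 or with the filter of 10 in every library is not given here. Nothing is therefore read from counts of a list under those settings. Fold changes below are log2, IR+Oligonol over IR control, with the adjusted p of the quasi-likelihood test.

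Regulators that attach or remove ubiquitin on RIG-I, or otherwise set its activity, went both ways. Of 26, 22 were tested, with 7 higher and 5 lower, at a median log2 fold change of 0.21 beside 0.15 over all tested genes. The deubiquitinases USP3 and USP15, which act on RIG-I and its partner TRIM25, rose by 1.24 (SE 0.21, adjusted p = 0.00761) and 1.52 (SE 0.28, adjusted p = 0.00836). USP15 entered the fit through the Oligonol group, as not every control reached the filter's level. NLRX1, a mitochondrial protein described as an inhibitor of MAVS, fell by 0.94 to 1.38 ± 0.0884 CPM with Oligonol, against 2.65 ± 0.0922 CPM in controls (adjusted p = 0.00816), and TKFC, an inhibitor of MDA5, fell by 1.16 (adjusted p = 0.00703); by library totals NLRX1 and TKFC were at 0.43 and 0.20. With the GC trend removed 0 of the 22 were called in either direction, the median was 0.05 and NLRX1 was at -0.00. Without control 3 the adjusted p was 0.0503 for USP3 and 0.0515 for USP15. TRIM25, the ligase that activates RIG-I, was at 2.67, 3.15 and 2.76 CPM with Oligonol and 3.53, 1.91 and 1.86 CPM in controls, and the groups overlapped. RNF135, the ligase also called Riplet, was not tested, at 0.0416 to 0.0795 CPM with Oligonol and 0 to 0.0185 CPM in controls.

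Downstream of the receptors, the partners of MAVS and TBK1 divided in a similar way. Of 28 listed, 25 were tested, and 12 were higher and 6 lower with Oligonol at a median of 0.35. The higher ones included CHUK, a kinase of the NF-kappaB pathway (1.48, SE 0.24, adjusted p = 0.00703), and the mitochondrial import receptors TOMM70, which binds MAVS (1.28, SE 0.21, adjusted p = 0.00728), and TOMM20 (1.15, SE 0.19, adjusted p = 0.00733). CHUK entered the fit through the Oligonol group, as not every control reached the filter's level. The 3 adaptors of TBK1 did not go together. TANK (1.33, adjusted p = 0.00993) and AZI2 (1.195, adjusted p = 0.0307) rose, while TBKBP1 (-1.10, SE 0.19, adjusted p = 0.00761) fell by TMM and was at 0.28 by library totals; TANK and AZI2 were named after their values were seen. Their GC contents were 40.3, 40.0 and 61.8%, and with the GC trend removed their log2 fold changes were 0.33, 0.22 and -0.16 and 0 of the 25 were called. Without control 3 no gene of the list was called, and CHUK, TOMM70 and TBKBP1 then had an adjusted p of 0.0503 and TOMM20 of 0.0506. IKBKE, the kinase most like TBK1, was too low to test, at 0.220, 0.140 and 0.202 CPM with Oligonol against 0.352, 0.427 and 0.370 CPM in controls.

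Among sensors of nucleic acid outside the RIG-I family, 15 of 26 were tested, with 9 higher and 3 lower at a median of 1.10. By library totals, where the median of all tested genes was 1.53, 12 were higher and 0 lower. ZBP1, which binds left-handed double-stranded RNA and DNA and leads to necroptosis, had 0.820, 0.578 and 1.87 CPM with Oligonol, against 0.116, 0.0880 and 0.0263 CPM in controls. All Oligonol libraries lay above all controls, the highest being Oligonol 3, on 136, 85.5 and 306 read equivalents with Oligonol against 14.8, 10.5 and 3.49 in controls. Its log2 fold change was 4.07 (SE 0.78, adjusted p = 0.00920), and 4.68 (adjusted p = 0.0397) with the GC trend removed, its GC content being 56.7%. Like DDX58 it reached the filter's level in 3 Oligonol libraries and 0 controls, and its adjusted p was 0.0544 without control 2 and 0.0503 without control 3. DHX9, a helicase that binds double-stranded RNA, rose by 1.45 (SE 0.23, adjusted p = 0.00702), and by 0.66 (adjusted p = 0.0382) with the GC trend removed. XRCC5 and PRKDC, subunits of the DNA-dependent protein kinase, rose by 1.10 (adjusted p = 0.00920) and 1.12 (adjusted p = 0.00841), and stood at 0.32 and 0.47 with the GC trend removed, where neither was called. Without control 3 the adjusted p was 0.0503 for DHX9, 0.0616 for XRCC5 and 0.0557 for PRKDC, and no gene of the list was called. CGAS and STING1, the sensor and adaptor for cytosolic DNA, were too low to test, at 0.0055 to 0.050 and 0.0599 to 0.189 CPM with Oligonol and 0 to 0.0286 and 0.0864 to 0.134 CPM in controls.

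Among the other genes of the IRF family and its partners, 1 passed the test. Of 9 listed, 7 were tested and the corepressor IRF2BP1 was called lower by TMM (-1.15, SE 0.24, adjusted p = 0.0102), with 0.19 by library totals and an adjusted p of 0.0530 to 0.0575 without Oligonol 1, Oligonol 3, control 2 or control 3. With the GC trend removed it was at -0.16 (adjusted p = 0.354), and 0 of the 7 were called. IRF1, an activator of interferon-stimulated genes, was at -0.48 (adjusted p = 0.309). IRF2, its antagonist, was at 0.85 (adjusted p = 0.0543), and IRF2BPL at -0.40 (adjusted p = 0.0675). IRF2 entered the fit through the Oligonol group, as not every control reached the filter's level. IRF1 and IRF2BPL changed sign with the GC trend removed, to 0.11 and 0.58, and by library totals, to 0.92 and 0.97. IRF2 passed the threshold without Oligonol 2 (adjusted p = 0.0251), by upper-quartile scaling (0.0424), by scaling on protein-coding genes (0.0483), by library totals (0.00490) and with the filter of 10 in every library (0.00617). IRF2BPL passed it without Oligonol 2 (adjusted p = 0.0144), by RLE scaling (0.0446) and by DESeq2 (0.0460).

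Interferon mRNA itself was at the limit of detection. Of 22 interferon genes of types I, II and III, 0 were tested, 15 were listed at 0 in every library and 20 stayed under 3 read equivalents in every library. The highest was IFNK, at 7.77 read equivalents in Oligonol 3, and IFNB1, the first target of IRF3, had about 1 read in 1 Oligonol library and was listed at 0 in the other 5. Summed over the 22 genes there were 12.5, 8.50 and 7.77 read equivalents with Oligonol, against 6.18, 1.68 and 6.03 in controls. A change in interferon mRNA could not be assessed at this depth.

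The receptors and the JAK-STAT steps that follow interferon were well above that limit. Of 26 genes, 20 were tested, with 7 higher and 3 lower at a median of 0.52. IFNAR1, a chain of the type I interferon receptor, was at 1.96, 1.33 and 1.75 CPM with Oligonol, against 0.620, 0.714 and 0.402 CPM in controls. Its log2 fold change was 1.55 (SE 0.29, adjusted p = 0.00844), and 0.96 (adjusted p = 0.0596) with the GC trend removed; without control 3 its adjusted p was 0.0503. IFNAR1 entered the fit through the Oligonol group alone. PIAS2, an inhibitor of activated STAT proteins, rose by 1.75 (SE 0.19, adjusted p = 0.00601) and PTPN11, a phosphatase, by 0.87 (SE 0.17, adjusted p = 0.00920). These 2 were also called with the GC trend removed, at 0.87 (adjusted p = 0.0279) and 0.62 (adjusted p = 0.0425), and PTPN11 had an adjusted p of 0.0512 to 0.0536 without Oligonol 3, control 2 or control 3. SOCS3, a feedback inhibitor of JAK kinases, was at -1.36 (SE 0.28, adjusted p = 0.00958) by TMM but 0.060 by library totals and -0.32 (adjusted p = 0.520) with the GC trend removed, and its adjusted p was 0.0526 without Oligonol 3 and 0.0513 without control 3.

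Among genes that interferon induces, those tested went both ways by TMM. Of 65 listed, 29 were tested, and 10 were higher and 7 lower with Oligonol, at a median of 0.05. By library totals, where the median of all tested genes was 1.53, 22 were higher and 0 lower. DESeq2 called 5 higher and 7 lower, and the quasi-likelihood test called 0 higher without control 2 or control 3. The other 36 did not pass the filter, although the largest reached 275 read equivalents. Summed without scaling, these 36 had 2116, 1344 and 2118 read equivalents with Oligonol, against 971, 1081 and 841 in controls. They are not part of the counts above. XAF1, a proapoptotic partner of the inhibitor XIAP, was at 1.28, 0.515 and 0.903 CPM with Oligonol, against 0.291, 0.153 and 0.125 CPM in controls. Its log2 fold change was 2.28 (SE 0.50, adjusted p = 0.0112), and 2.70 (adjusted p = 0.0454) with the GC trend removed. XAF1 entered the fit through the Oligonol group alone, and its adjusted p was 0.0538 to 0.0640 without Oligonol 1, Oligonol 3, control 2 or control 3. MX2, a GTPase that blocks viral nuclear import, was at 0.757, 0.916 and 0.766 CPM with Oligonol, against 0.323, 0.352 and 0.348 CPM in controls (1.32, SE 0.28, adjusted p = 0.0101), but was not called by DESeq2 (adjusted p = 0.0706), with the GC trend removed (1.06, adjusted p = 0.0599), or without Oligonol 3, control 2 or control 3 (adjusted p = 0.0545 to 0.0604). Like XAF1, MX2 entered the fit through the Oligonol group alone. PNPT1, a mitochondrial exoribonuclease, rose by 1.34 (SE 0.28, adjusted p = 0.00993), with 0.30 after removal of the GC trend and an adjusted p of 0.0559 and 0.0557 without control 2 and control 3. PNPT1 also entered the fit through the Oligonol group, as not every control reached the filter's level. HELZ2, a helicase-like coactivator, had 0.697, 1.08 and 1.03 CPM with Oligonol, against 2.53, 2.60 and 2.71 CPM in controls (-1.48, SE 0.23, adjusted p = 0.00657), and stood at -0.45 with the GC trend removed and -0.12 by library totals.

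Genes often used as a readout of interferon also went both ways, and the following were named after their values were seen. ISG15, a ubiquitin-like protein, was at 0.462, 0.523 and 0.430 CPM with Oligonol, against 0.856, 1.02 and 1.39 CPM in controls (-1.23 by TMM, adjusted p = 0.0132; -0.22 with the GC trend removed). IFIT1 and IFIT3, which bind foreign RNA or partner proteins that do, were too low to test. IFIT1 had 0.0978, 0.0502 and 0.101 CPM with Oligonol and 0.0906, 0.0789 and 0.0590 CPM in controls, and the groups overlapped. IFIT3 had 0.375, 0.0871 and 0.175 CPM with Oligonol and 0.0876, 0.0679 and 0.0649 CPM in controls, with Oligonol 2 at the top of the controls. OAS1, which makes the activator of RNase L, was at 1.70, 1.03 and 1.52 CPM with Oligonol, against 0.688, 0.448 and 0.321 CPM in controls (1.55, adjusted p = 0.0133; 1.47, adjusted p = 0.0651, with the GC trend removed). OAS1 entered the fit through the Oligonol group, as not every control reached the filter's level. IFITM3, a membrane protein that blocks viral entry, had 5.70, 4.56 and 7.44 CPM with Oligonol and 4.65, 3.18 and 2.87 CPM in controls (0.73, adjusted p = 0.0477), with Oligonol 2 just under control 1. MX1, a relative of MX2, had 0.982, 0.778 and 1.02 CPM with Oligonol and 0.550, 0.633 and 0.264 CPM in controls (0.91, adjusted p = 0.0534). MX1, like MX2, entered the fit through the Oligonol group alone. RSAD2, an antiviral enzyme, was too low to test, at 0.175, 0.177 and 0.159 CPM with Oligonol and 0.0602, 0.169 and 0.0158 CPM in controls. With the GC trend removed, 1 gene of the list was called higher, XAF1, and 1 lower, IFIT5 (-1.10, adjusted p = 0.0443), which was at 0.05 before.

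**Figure D4:**
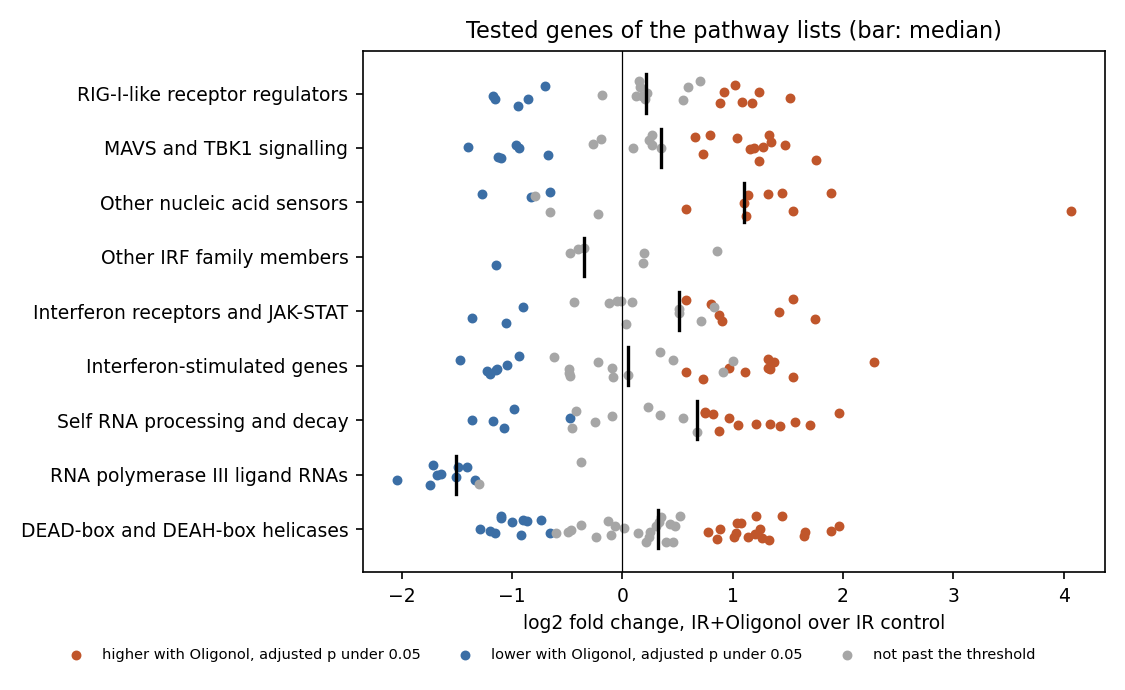
Log2 fold change, IR+Oligonol over IR control, of each tested gene in 9 lists around the pathway, by TMM scaling, with the median as a bar and genes past an adjusted p of 0.05 in colour. Genes lie on both sides of 0 in 8 of the 9 lists, and the RNA polymerase III RNAs lie below 0, at a median of -1.51. By library totals 0 genes of the MAVS and TBK1, sensor, interferon-stimulated and helicase lists were called lower. The median of all tested genes was then 1.53.

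Enzymes that keep cellular RNA from being taken for foreign, by capping, editing or degrading it, were all above the filter. Of 25, 12 were higher and 5 lower, at a median of 0.68, and -0.02 with the GC trend removed. DICER1, which cuts double-stranded RNA, was at 6.09, 3.10 and 4.64 CPM with Oligonol, against 1.10, 1.57 and 0.933 CPM in controls. Its log2 fold change was 1.97 (SE 0.31, adjusted p = 0.00694) and stayed at 1.07 (adjusted p = 0.0421) with the GC trend removed. RNASEH2C, a subunit of the enzyme that removes RNA from DNA hybrids, fell by 1.37 (SE 0.22, adjusted p = 0.00703), and by 0.69 (adjusted p = 0.0335) with the GC trend removed, but was at -0.01 by library totals. The cap methyltransferase RNMT (1.21, SE 0.20, adjusted p = 0.00734) and the exonuclease XRN1 (1.70, SE 0.31, adjusted p = 0.00806) rose, and were at 0.24 and 0.60 with the GC trend removed, uncalled. XRN1 entered the fit through the Oligonol group, as not every control reached the filter's level. Without control 3 the adjusted p was 0.0503 for DICER1 and RNASEH2C and 0.0506 for XRN1. ADAR, the editing enzyme that hides cellular double strands from MDA5, was named after its values were seen and was at 16.1, 17.1 and 15.8 CPM with Oligonol, against 14.2, 15.5 and 22.5 CPM in controls, inside the control range.

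RNA polymerase III transcripts, some of which have been reported to bind RIG-I in infected or stressed cells, were mostly lower with Oligonol by TMM. Their summed level after TMM scaling was 313771 to 525451 CPM with Oligonol and 986167 to 1454120 CPM in controls. They thus made up a large part of the libraries. Their lower level goes together with the larger share of protein-coding counts with Oligonol, and what set this composition was not tested. Of 14 rows, 11 were tested, and 0 were higher and 9 lower by TMM at a median of -1.51, with 4 lower after removal of the GC trend. RN7SL1, the RNA of the signal recognition particle, was at -1.74 (SE 0.33, adjusted p = 0.00862), at -0.80 (adjusted p = 0.135) with the GC trend removed and at -0.39 (adjusted p = 0.0210) by library totals. Its adjusted p was 0.0520 to 0.0549 without Oligonol 3, control 2 or control 3, and 0.0884 with no filter. The Y RNAs RNY1 (-1.51, SE 0.27, adjusted p = 0.00782) and RNY4 (-1.72, SE 0.28, adjusted p = 0.00722) are scaffolds of the Ro particle, and were at -2.22 and -2.61 (adjusted p = 0.0228 for both) with the GC trend removed. Both had an adjusted p of 0.0503 without control 3, and by library totals they were at -0.13 and -0.34, uncalled. RMRP, the RNA of a ribonuclease, has 2 identifiers in the table, at -2.05 (SE 0.29, adjusted p = 0.00620) and -1.49, the first at -1.08 (adjusted p = 0.0484) with the GC trend removed and -0.68 by library totals; reads could be split between the 2. RNA5SP141, a pseudogene transcript described as a RIG-I ligand, had at most 2.09 read equivalents, in 1 library. In RNAs this short, 1 read is worth more than 1 estimated count, so their levels rest on fewer reads than the counts show. RN7SL1 still had 1294560 to 5168850 read equivalents. RNY1, RNY4 and RNA5SP141 are shorter than the fitted fragments of 152 to 160 bases. Their read equivalents rest on an assumed length and are not a number of reads.

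The wider helicase family to which RIG-I is related also went both ways. Of 57 DEAD-box and DEAH-box genes, 50 were tested, with 18 higher and 11 lower at a median of 0.32. By library totals, where the median of all tested genes was 1.53, 42 were higher and 0 lower. DDX6, a helicase of cytoplasmic RNA granules, rose by 1.65 (SE 0.22, adjusted p = 0.00615), and DHX15, a splicing helicase, by 1.64 (SE 0.26, adjusted p = 0.00690). With the GC trend removed DDX6 was at 0.74 (adjusted p = 0.0375) and DHX15 at 0.50 (adjusted p = 0.0800), and DDX6, DHX9 and DICER1 were the 3 genes of the list still called. The largest value in the list was that of DICER1, 1.97, beside 3.02 for DDX58, which had been selected on it. The DDX58 value rests on low, rounded control counts and was 2.48 on read equivalents.

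The genes whose pattern over the 6 libraries was most like that of DDX58 were RFWD3, ITFG1, RGS4, DLD and SFPQ, with Pearson's r of log2 CPM from 0.998 to 0.999. RFWD3 encodes a ubiquitin ligase, RGS4 a regulator of G protein signalling, DLD a mitochondrial dehydrogenase and SFPQ a splicing factor. Of 11727 protein-coding genes compared, 1047 (8.93%) had an r of at least 0.95. The 6 libraries form 2 groups, so r largely reads the difference between the groups and how close the replicates lie. It was taken on rounded counts, where DDX58 was 1 in each control, so rounding made its controls more alike. RFWD3 had a log2 fold change of only 0.35 and was not called by the quasi-likelihood test (adjusted p = 0.0886). Among the other pathway genes r with DDX58 was 0.91 for TBK1, -0.85 for MAVS and IRF3, -0.87 for IRF9, -0.94 for STAT2 and -0.95 for IRF7.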

How the data were processed

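The authors deposited 1 table of 6 libraries with estimated counts and a scaled signal per gene. In each library the signal equalled the deposited estimated count multiplied by a single constant and was not used further. Per the submitters' processing notes, FastQC, kallisto 0.46.1, edgeR and GRCh38.p13 were used. No source used here describes the step from transcripts to gene values. Transcript length, GC content and biotype came from GENCODE 29, matched for 58308 identifiers (41719 with the same start and end), which need not be the authors' release. Read equivalents used the longest protein-coding transcript and a scale fitted per library to give whole reads (68.2 to 71.6% of low values came within 0.05 of a whole number, which is no independent check), so they are approximate.

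Estimated counts were rounded, filtered with filterByExpr (16574 genes), scaled by TMM and tested with edgeR 4.0.16 (quasi-likelihood, robust, group only, 2-sided, Benjamini-Hochberg over all tested genes, threshold 0.05) in R 4.3.3, with limma 3.58.1 and DESeq2 1.42.0 as alternatives, after a check on simulated data. The GC trend was a natural spline with 5 degrees of freedom per library, removed as an offset. Nothing in the labels says that replicates were separate cultures; p-values may therefore reflect technical spread alone. The 9 genes and the lists were chosen with earlier results of these data known. Named genes were the 9, the 4 tested genes with the smallest p in each list (3 for marker lists) and the 5 most like DDX58; some named marker genes are not described, and 1 gene of the lists is not reported here by name. Replicate numbers did not pair the samples.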

Additional observations from a re-analysis of the deposited data

How the results depend on the processing

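The fold change of DDX58 (log2 3.02) stayed positive under each alternative that could give it a value, at 4.35 by library totals, 2.57 by limma-voom, 2.48 on read equivalents, 2.06 with the GC trend removed and 2.90 to 3.04 with 1 library left out; the filter of 10 in every library removed DDX58. With both at once, an alternative chosen after seeing the data, it was 2.17, 2.01 and 1.98 without Oligonol 1, 2 and 3 and 2.04, 2.01 and 2.14 without control 1, 2 and 3. DDX58 was selected on this difference in the same libraries. Its positive sign under these alternatives is therefore no independent check. The 8112 genes called became 882 with the GC trend removed, 4567 with no filter and 782 to 9492 with 1 library left out; with both the GC trend and a library removed they were 491 without Oligonol 2, 488 without control 1 and 0 in the other 4 cases. Of the MAVS and TBK1 list, 12 higher and 6 lower became 20 and 0 by library totals and 0 and 0 with the GC trend removed, with 2 lower without a filter, and 0 to 8 and 0 to 6 with 1 library left out. Of the interferon-stimulated genes, 10 higher and 7 lower became 22 and 0 by library totals, 1 and 1 with the GC trend removed, 5 and 4 with no filter, and 0 to 7 and 1 to 9 with 1 library left out; the filter of 10 in every library left 3 higher and DESeq2 5. By library totals the sign turned for MAVS (1.02), IRF3 (0.22), IRF7 (0.22), STAT2 (0.88), IRF9 (0.34), NLRX1 (0.43), TKFC (0.20), TBKBP1 (0.28), IRF1 (0.92), IRF2BP1 (0.19), IRF2BPL (0.97) and SOCS3 (0.060), where the median of all tested genes was 1.53; with the GC trend removed it turned for IRF1 (0.11) and IRF2BPL (0.58). The values that turned sign by library totals all lay under that median of 1.53. What set the libraries apart in composition and GC content was not tested.

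Same-numbered samples deviated with correlations of 0.087, -0.0087 and -0.147 and share only a number. With the replicate number as a block 6 interferon-stimulated genes were higher and 7030 genes were called; with the block and the GC trend removed DDX58 was at 2.06, IRF1 at 0.14, IRF2BPL at 0.58, and 0 genes were called overall or in either direction in both lists. Depth limits IFIH1, DHX58 and the interferon genes.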
